A study of Mus musculus with 7 samples.

Results

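The Hox genes encode homeodomain transcription factors that set the identity of body segments along the head-to-tail axis of the embryo. RNA of mouse sperm was read on 7 expression arrays, and 37 of the 33604 probe sets in the table named exactly 1 Hox gene of clusters A to D in the platform annotation. They covered 36 genes: 9 of cluster A, 10 of cluster B, 9 of cluster C and 8 of cluster D. Hoxa11 and Hoxd4 were named only together with another gene and are not among the members. Members were chosen by symbol and not by any value, and all 37 entered every comparison, since no filter on low values was applied.

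TG3 males carried a KDM1A transgene, handed down through heterozygous males mated to C57BL/6 females until generation 3, and nonTG3 males were their littermates without it. Each had 3 arrays, every one a pool of sperm RNA from 4 males. The transgene had been injected into C57BL/6 zygotes and came down from a pair of founder females. The outside C57BL/6 group had 1 array, a pool from 5 males. The promoter of the transgene and the ages of the males were not given in the sources used here. Nothing there says that each male entered 1 pool only, and the p-values cover the spread from pool to pool alone.

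Hox genes lie in 4 clusters, and genes at the same place in different clusters share a paralog number from 1 to 13. Within a cluster, genes with low numbers act towards the head and genes with high numbers towards the tail and in the limbs and genital tract. In embryonic stem cells and in sperm their promoters are known to carry both an activating methyl mark on lysine 4 of histone H3 and a repressive Polycomb mark. KDM1A removes some, but not all, methyl forms of that lysine. Mature sperm hardly transcribe, and the RNA they hold is largely left over from spermatids.

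Values are log2 intensities as the authors deposited them after RMA, which removes background, forces the same distribution on each array and condenses a probe set to 1 value. Probes differ in how brightly they bind, so a reading is set here against the median of its own array (3.52 to 3.61 over the 7 arrays) and is not a measure of RNA amount that ranks one gene above another. Whether a dim reading lies above background was not measured. In bulk RNA, fewer cells of a type and less RNA per cell cannot be told apart. RMA often returned exactly the same value on several arrays: on the 6 arrays of TG3 and nonTG3 (the line), no more than 4 distinct values were seen in 14 of the 37 Hox probe sets, against 30.9% of all 23493 probe sets with 1 symbol.

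The arrays carried the markers of sperm and late spermatids: all 11 probe sets of that list, such as the protamine Prm1, read above the array median on every array, and their mean lay at 9.14 to 9.48 on the line and 10.23 on C57BL/6. Kdm1a read 5.06, 5.27 and 5.27 in TG3, 5.07, 5.27 and 5.27 in nonTG3 and 5.64 in C57BL/6, and no source used here tells whether its probe set reads the transgene. Some arrays stood apart in gene lists other than Hox. The 10 mitochondrially encoded genes averaged 8.80 on TG3 replicate 1 and 8.91 on nonTG3 replicate 3, against 9.98 to 11.55 on the 4 remaining line arrays and 11.24 in C57BL/6. The 17 probe sets for fibroblast, muscle and vessel markers averaged 5.43 and 5.26 on those same 2 arrays, against 4.39 to 4.69 on those 4 and 4.49 in C57BL/6.

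Hox probe sets read on both sides of the array median, and the share above it on every array was near that of all probe sets tested. Of the 37, 18 read above the median on all 7 arrays, where 47% of all probe sets tested did. A further 13 read below it on all 7 arrays and 6 crossed it, for which no share over all probe sets was computed. The median Hox reading minus the array median was 0.34, 0.14 and 0.27 in TG3, 0.05, 0.32 and 0.23 in nonTG3 and 0.06 in C57BL/6. With the array median taken over the 23493 named probe sets alone, an alternative chosen after seeing the data, 14 in place of 18 lay above it on every array. The share of all probe sets tested that did so was then 41.5%.

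The clusters differed in how many members read above the median. In cluster B 7 of 11 probe sets did so on all 7 arrays, in cluster D 5 of 8, in cluster C 4 of 9 and in cluster A 2 of 9. By position, 10 of 15 central probe sets (paralog numbers 4 to 8) read above it on all arrays, against 3 of 7 with numbers 1 to 3 and 5 of 15 with numbers 9 to 13. All 4 probe sets of number 13 (Hoxa13, Hoxb13, Hoxc13 and Hoxd13) read below the median on every array. All 3 of number 8 (Hoxb8, Hoxc8 and Hoxd8), genes of the trunk, read above it on every array. The cluster counts depended in part on the median used. Against the median of the named probe sets alone they were 7 of 11 in cluster B, 4 of 8 in D, 1 of 9 in C and 2 of 9 in A. All these counts describe the probe sets of this array and were not tested.

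**Figure D1:**
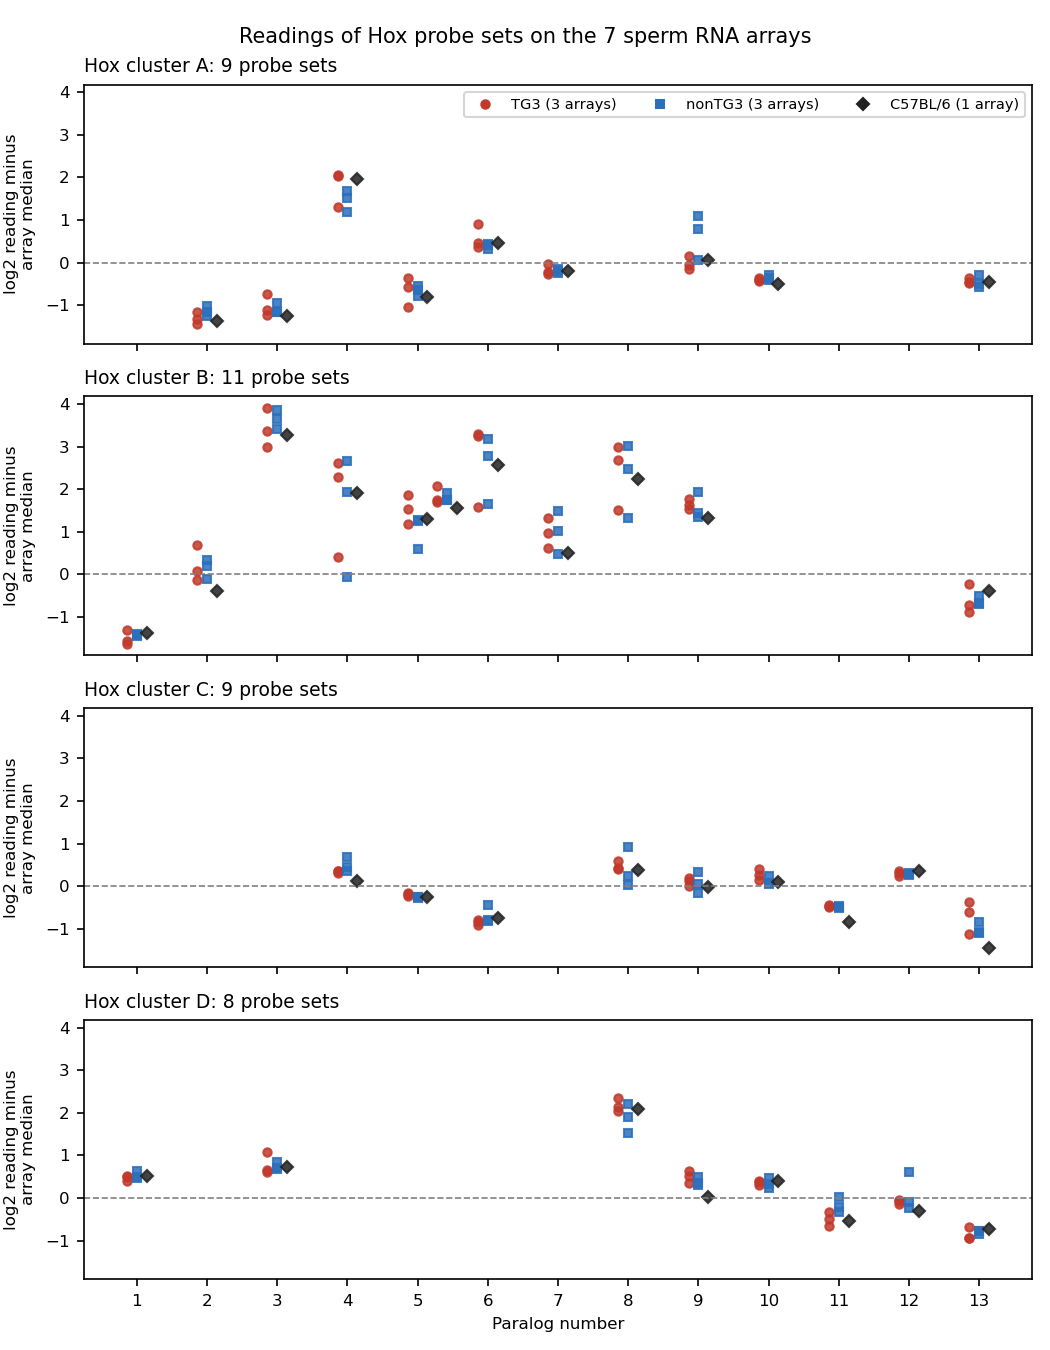
Readings of the 37 Hox probe sets, 1 panel per cluster, with the paralog number on the x axis and the log2 reading minus the array's own median on the y axis (dashed line at 0). Red circles are the 3 TG3 arrays, blue squares the 3 nonTG3 arrays and black diamonds the C57BL/6 array, and Hoxb5 has 2 probe sets side by side. Cluster B holds a run of high readings at numbers 3 to 9, and within it Hoxb4, Hoxb6 and Hoxb8 have 1 low TG3 and 1 low nonTG3 array each.

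Many of the readings farthest above the array median came from a run of neighbours in cluster B, Hoxb3 to Hoxb9, a stretch marked out after its values were seen and therefore not tested. Of its 8 probe sets 7 read above the median on all arrays. Hoxb3, a gene of the hindbrain and neck region, read 7.45, 6.90 and 6.60 in TG3, 6.96, 7.22 and 7.40 in nonTG3 and 6.78 in C57BL/6. Hoxb9, of the thoracic region, read 5.19, 5.30 and 5.14 in TG3, 5.49, 5.01 and 4.88 in nonTG3 and 4.85 in C57BL/6. TG3 and nonTG3 readings overlapped for both genes. Hoxb5 had 2 probe sets. Probe set 17268313 read 5.30, 5.62 and 5.30 in TG3, 5.30, 5.49 and 5.28 in nonTG3 and 5.07 in C57BL/6. Probe set 17255588 read 4.73, 5.06 and 5.48 in TG3, 4.82, 4.82 and 4.13 in nonTG3 and 4.82 in C57BL/6. The pair differed over the arrays: the first was nearly flat, and the second was lowest on nonTG3 replicate 3.

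For Hoxb4, Hoxb6 and Hoxb8 the spread within TG3 and within nonTG3 was larger than the difference between their means. Hoxb4, a gene that also promotes the growth of blood stem cells, read 3.95, 5.82 and 6.22 in TG3, 6.20, 5.51 and 3.47 in nonTG3 and 5.43 in C57BL/6. Hoxb6 read 5.13, 6.82 and 6.85 in TG3, 6.73, 6.37 and 5.19 in nonTG3 and 6.08 in C57BL/6. Hoxb8, a gene of the trunk, read 5.07, 6.52 and 6.29 in TG3, 6.56, 6.04 and 4.87 in nonTG3 and 5.76 in C57BL/6. For each gene TG3 replicate 1 and nonTG3 replicate 3 read lowest within the line, and both also had its lowest mitochondrial means. Next in order came nonTG3 replicate 2, in these genes as in the mitochondrial mean. Their range over the line was the widest of all Hox probe sets, at 2.75 for Hoxb4, 1.72 for Hoxb6 and 1.69 for Hoxb8 on the log2 scale.

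Both of these arrays read lower than the other 4 of the line for 6 of the 37 Hox probe sets, where 9.93% of all probe sets tested had that order. Besides the 3 above they were Hoxb7, Hoxb5 (17255588) and Hoxa7. Hoxb7 read 4.17, 4.51 and 4.93 in TG3, 5.04, 4.60 and 4.03 in nonTG3 and 4.01 in C57BL/6. The opposite order, both arrays higher than the other 4, held for 2 Hox probe sets, Hoxb3 and Hoxd10, against 13.9% of all tested. The order was thus not shared by Hoxb3, the neighbour of Hoxb4, nor by Hoxb9. Markers of the epididymal epithelium, the lining of the duct that stores sperm, followed it only in part. Their 20 probe sets averaged 4.72 on nonTG3 replicate 3, 4.90 on nonTG3 replicate 2 and 5.19 on TG3 replicate 1. The other 3 line arrays averaged 5.44 to 5.54, and TG3 replicate 1 thus lay above nonTG3 replicate 2. Of these 20, 5 probe sets had the low order (for Rnase10, Krt18, Epcam, Pax8 and Aqp9) and 2 the high one. Pax8, a homeobox gene of kidney, thyroid and genital tract epithelium, read 3.83, 5.64 and 5.88 in TG3, 5.70, 5.08 and 3.57 in nonTG3 and 5.10 in C57BL/6. Of the 17 fibroblast, muscle and vessel probe sets 14 had the high order and 0 the low one. Regulators of Hox genes had the low order too. It held for 7 of 16 probe sets of Trithorax proteins, which keep Hox genes active, with 3 in the high order. For Polycomb proteins, which hold them silent, 7 of 30 had the low order and 4 the high one. What part mitochondrial RNA, the epididymal epithelium, or the cells marked by the fibroblast, muscle and vessel genes had in these readings was not tested.

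**Figure D2:**
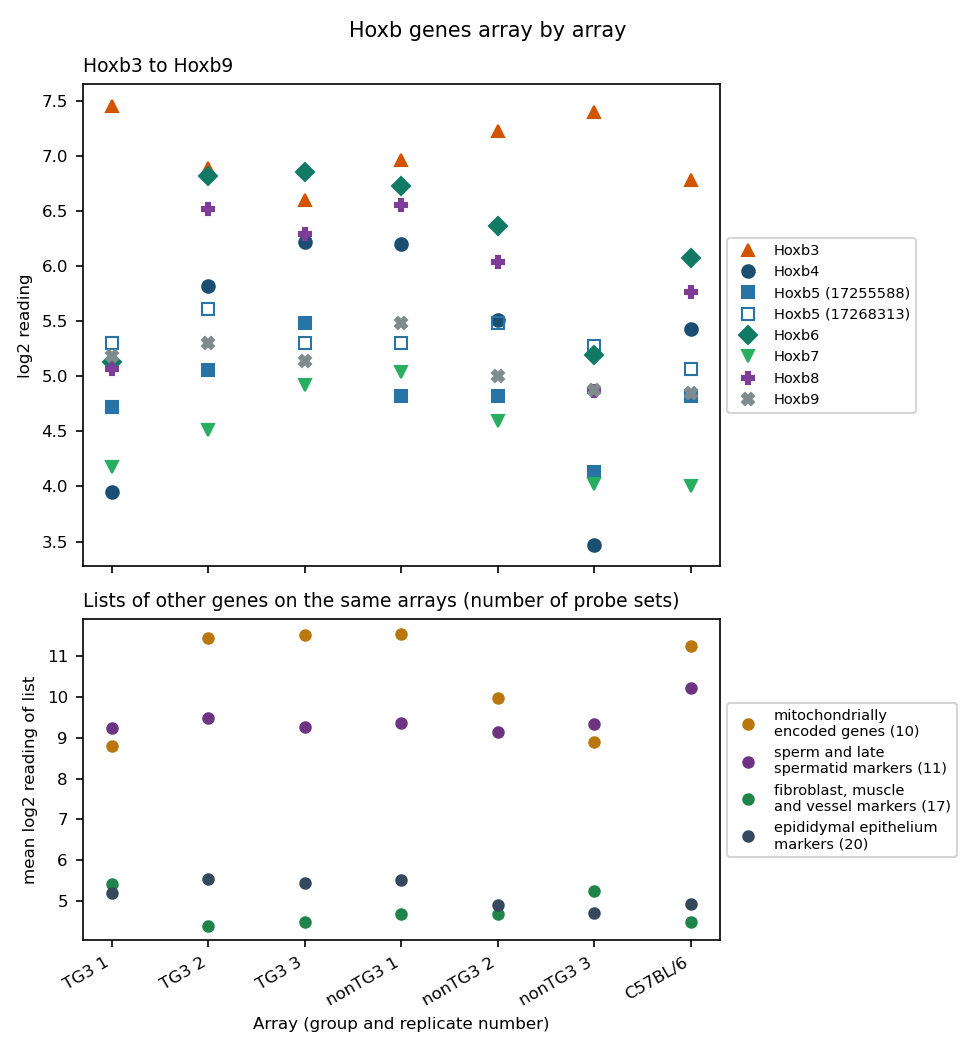
Log2 readings of Hoxb3 to Hoxb9 (upper panel) and mean log2 readings of 4 lists of other genes (lower panel) on each array, with arrays of TG3, then nonTG3, then C57BL/6 on the x axis. Points are single arrays; the open square is Hoxb5 probe set 17268313. Hoxb4, Hoxb6 and Hoxb8 are low on TG3 replicate 1 and nonTG3 replicate 3, where mitochondrially encoded genes average 8.80 and 8.91, and Hoxb3 is high there, at 7.45 and 7.40.

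Promoters of Hoxb4 and Hoxb8, which had that order in common, are shown beside that of Hoxb1, which read low on every array of the same cluster. Each is the 300 bases from 250 before to 50 after the gene's start, taken from RefSeq (GRCm38.p6), written 5′ to 3′ with CG dinucleotides, the sites of DNA methylation, in capitals.
Hoxb4 (chr11:96318017-96318316, strand +): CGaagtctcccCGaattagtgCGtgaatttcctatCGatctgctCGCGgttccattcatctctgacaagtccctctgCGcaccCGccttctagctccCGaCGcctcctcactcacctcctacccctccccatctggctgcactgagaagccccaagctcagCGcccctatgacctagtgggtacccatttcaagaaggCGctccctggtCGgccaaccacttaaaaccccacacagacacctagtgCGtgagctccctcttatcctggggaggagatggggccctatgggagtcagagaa
Hoxb8 (chr11:96281655-96281954, strand +): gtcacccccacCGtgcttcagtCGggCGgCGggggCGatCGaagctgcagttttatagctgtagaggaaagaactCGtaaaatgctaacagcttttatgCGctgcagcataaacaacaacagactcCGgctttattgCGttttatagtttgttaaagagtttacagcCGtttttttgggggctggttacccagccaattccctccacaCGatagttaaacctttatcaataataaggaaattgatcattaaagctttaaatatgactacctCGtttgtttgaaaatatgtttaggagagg
Hoxb1 (chr11:96365508-96365807, strand +): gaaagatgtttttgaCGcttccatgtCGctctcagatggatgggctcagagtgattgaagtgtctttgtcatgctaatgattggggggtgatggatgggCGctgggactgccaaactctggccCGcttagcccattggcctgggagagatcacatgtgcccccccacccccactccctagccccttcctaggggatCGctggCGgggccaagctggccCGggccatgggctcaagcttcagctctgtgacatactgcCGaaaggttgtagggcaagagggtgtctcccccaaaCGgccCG
The Hoxb4 promoter held 14 CG, that of Hoxb8 13 and that of Hoxb1 10, so all 3 lay above the median over all promoters. As many CG or more were held by 36.3% of all promoters for Hoxb4, 37.9% for Hoxb8 and 43.5% for Hoxb1. The 22 promoters matched to 20 of the member genes held 4 to 45 CG, with a median of 17, against a median of 7 over all 32851. The motif TGATNNAT, bound by pairs of Hox and Pbx proteins, was sought on both strands. It occurred in 4 of the 22, or 18.2%, against 8.85% of all promoters, and those 4 belonged to Hoxa2, Hoxb1, Hoxb8 and 1 of the pair listed for Hoxd11. In Hoxb1 the letters were TGATGGAT on the gene's strand and in Hoxb8 TGATCAAT on the opposite strand. A match is a description of letters and not a binding site.

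Outside that run, Hoxd8 and Hoxa4 lay farthest above the array median. Hoxa4, which in the adult mouse is known for its expression in male germ cells from meiosis onwards, read 4.84, 5.57 and 5.67 in TG3, 4.74, 5.24 and 5.06 in nonTG3 and 5.48 in C57BL/6. Hoxd8 read 5.60, 5.67 and 5.95 in TG3, 5.76, 5.48 and 5.07 in nonTG3 and 5.60 in C57BL/6. Both read above the array median on all 7 arrays, and their groups overlapped. At the other end, Hoxb1, a gene of hindbrain segments, read 2.23, 1.98 and 1.98 in TG3, 2.13 on each nonTG3 array and 2.13 in C57BL/6. Hoxa2, needed for the second branchial arch, read 2.11 to 2.44 in TG3, 2.29 to 2.55 in nonTG3 and 2.14 in C57BL/6. Hoxa3, needed for the thymus and parathyroid, read 2.39 to 2.79 in TG3, 2.39 to 2.62 in nonTG3 and 2.26 in C57BL/6. These 3 lay farthest below the array median of all Hox probe sets, with a mean reading minus array median of -1.45 for Hoxb1, -1.25 for Hoxa2 and -1.09 for Hoxa3.

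TG3 against nonTG3 asks whether Hox RNA in sperm differed between carriers of the transgene and their littermates, and no Hox gene passed the test. limma called 0 of the 37 Hox probe sets and 0 of all 23493 (0% called), and at an unadjusted p under 0.05 it found 0 Hox probe sets, against 2.38% of all (1.48% higher in TG3). The adjusted p of the members ran from 0.923 to 1. In 0 of the 37 did the 3 TG3 readings lie clear of the 3 nonTG3 readings, where 2.47% of all probe sets were clear and higher in TG3 and 1.65% were clear and lower. The median difference was 0.03 log2 units, against 0.0045 over all tested, with 24 members above 0 and 13 below, where 51% of all were above 0. That split rested on single arrays: 16 of 37 were above 0 without TG3 replicate 3, where the median was -0.024, and 18 without nonTG3 replicate 3.

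Hoxa9, a gene of the trunk, genital tract and blood progenitors, had the most negative difference. It read 3.70, 3.48 and 3.47 in TG3, 3.599, 4.67 and 4.32 in nonTG3 and 3.57 in C57BL/6. Replicates 2 and 3 of nonTG3 were high, and nonTG3 replicate 1 lay among the TG3 readings. Its mean was 3.55 ± 0.13 in TG3 and 4.20 ± 0.55 in nonTG3 (SD, n = 3 each). The log2 difference was -0.65 ± 0.28 (limma SE, limma adjusted p = 0.923). It was -0.41 without nonTG3 replicate 2 and -0.94 without nonTG3 replicate 1. Hoxd11, which patterns the forearm and kidney, read 3.21, 3.05 and 2.95 in TG3, 3.21, 3.36 and 3.57 in nonTG3 and 2.97 in C57BL/6. Its difference of -0.31 ± 0.13 also missed the test (limma adjusted p = 0.923), and replicate 1 of both groups read the same. Hoxc4 differed by -0.15 ± 0.11 and Hoxc6 by -0.16 ± 0.12 between TG3 and nonTG3 on the log2 scale, with readings of 3.90 to 3.92 and 2.61 to 2.77 in TG3 against 3.90 to 4.23 and 2.77 to 3.09 in nonTG3. Without nonTG3 replicate 3 these differences were -0.057 for Hoxc4 and -0.051 for Hoxc6. Without nonTG3 replicate 1 they were -0.22 for Hoxc4 and -0.21 for Hoxc6.

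Among positive differences, the smallest p-values belonged to Hoxb5 (17255588), Hoxc13, Hoxc10 and Hoxd8. The Hoxb5 probe set averaged 5.09 ± 0.38 in TG3 and 4.59 ± 0.40 in nonTG3 (SD, n = 3 each), a log2 difference of 0.50 ± 0.28 (limma SE; limma adjusted p = 0.923). It was 0.26 without nonTG3 replicate 3, 0.30 without TG3 replicate 3 and 0.68 without TG3 replicate 1. The other Hoxb5 probe set differed by 0.05 ± 0.12. Hoxc13, a gene of hair and nail formation, read 2.43, 3.15 and 3.01 in TG3, 2.48, 2.47 and 2.69 in nonTG3 and 2.06 in C57BL/6, all below the array median. Its mean was 2.86 ± 0.38 in TG3 and 2.55 ± 0.13 in nonTG3 (SD, n = 3 each), with TG3 replicate 1 below every nonTG3 array. The difference ran from 0.17 without TG3 replicate 2 to 0.53 without TG3 replicate 1. Hoxc10 differed by 0.16 ± 0.11 and Hoxd8 by 0.30 ± 0.20 (limma SE), both with overlapping groups. That of Hoxc10 was 0.10 without TG3 replicate 1 and 0.25 without TG3 replicate 2. That of Hoxd8 was 0.12 without nonTG3 replicate 3, 0.20 without TG3 replicate 3 and 0.47 without nonTG3 replicate 1.

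How large a difference in readings the arrays could have missed varied by gene. Of the 37, 13 read below the array median on all 7 arrays. No more than 4 distinct values were seen on the line in 14. For such dim or tied readings a narrow interval need not bound the difference in RNA. For 32 of the 37 the 95% interval of limma between TG3 and nonTG3 lay within 1 log2 unit on either side of 0. It reached beyond that limit for Hoxa9, Hoxb4, Hoxb5 (17255588), Hoxb6 and Hoxb8. Hoxb4, for example, averaged 5.33 ± 1.21 in TG3 and 5.06 ± 1.42 in nonTG3 (SD, n = 3 each), and the interval of its difference ran from -1.99 to 2.53. Without TG3 replicate 1 and nonTG3 replicate 3 the Hoxb4 means were 6.02 over both remaining TG3 arrays and 5.86 over both remaining nonTG3 arrays. Those of Hoxb6 were then 6.84 in TG3 and 6.55 in nonTG3, and those of Hoxb8 6.41 in TG3 and 6.30 in nonTG3.

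**Figure D3:**
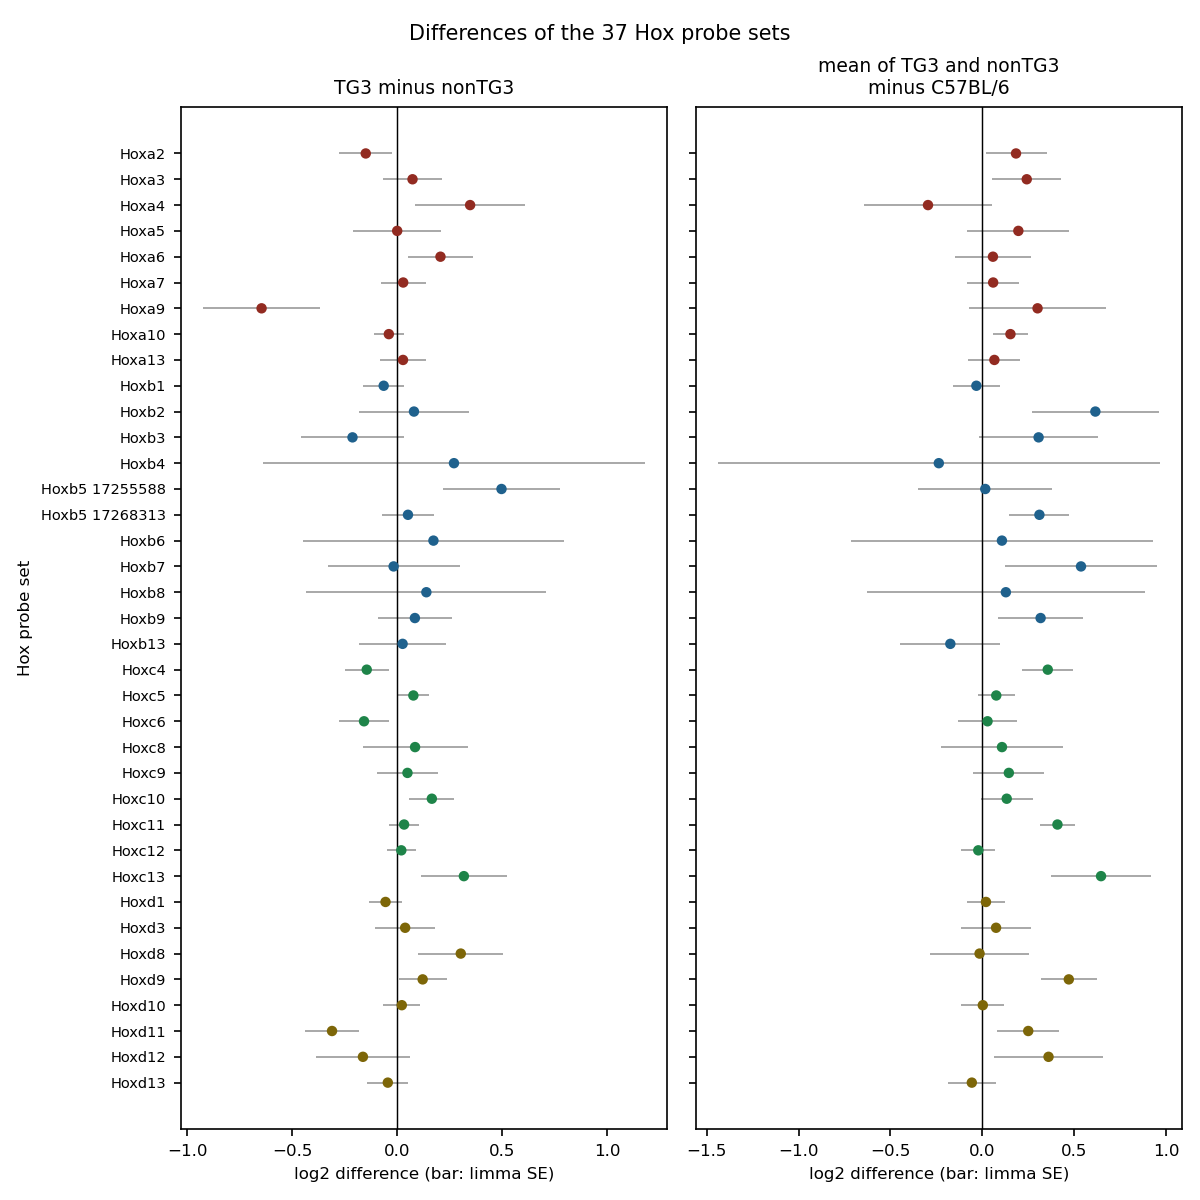
Log2 differences of the 37 Hox probe sets for TG3 minus nonTG3 (left) and for the mean of TG3 and nonTG3 minus C57BL/6 (right), with the limma SE as bars. Genes run from cluster A at the top to cluster D at the bottom, coloured by cluster. Between TG3 and nonTG3 the differences lie from -0.65 (Hoxa9) to 0.50 (Hoxb5 17255588), and against C57BL/6 30 of 37 lie to the right of 0, from -0.30 (Hoxa4) to 0.65 (Hoxc13).

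The line, taken as the mean of TG3 and nonTG3, was then set against the outside C57BL/6 array. Of the 37 Hox probe sets 0 were called by limma, where 3.02% of all tested were called (0.17% higher and 2.85% lower), and the smallest adjusted p of a member was 0.124. At an unadjusted p under 0.05 there were 3, all higher in the line (Hoxc11, Hoxc4 and Hoxd9), where 12.2% of all passed (4.29% higher). The median difference was 0.13 log2 units (0.075 without nonTG3 replicate 2), against 0.04 over all tested, and 30 of 37 members were above 0, where 60.8% of all were. In 12 members all 6 line arrays read above C57BL/6, against 18.2% of all tested, and in 0 did all 6 read below, against 14.3%. The C57BL/6 array has no replicate, so a single array decides the sign of each of these differences. For each limma p that array is assumed to vary as TG3 and nonTG3 arrays do. Markers of other stages and cells moved with this contrast: limma called 4 of the 11 sperm and late spermatid probe sets lower in the line (Tnp1, Ldhc, Prm1 and Prm3), 5 of 13 for Sertoli and Leydig cells lower and 1 of 20 for epididymal epithelium higher. Their part in the Hox differences was not tested.

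The smallest p-values lay in clusters C and D. Hoxc11, a gene of the lower spine and hindlimb, read 3.07, 3.07 and 3.18 in TG3, 3.07, 3.07 and 3.08 in nonTG3 and 2.68 in C57BL/6. The line averaged 3.09 ± 0.04 (SD, n = 6), a log2 difference of 0.41 ± 0.10 (limma SE; limma adjusted p = 0.124). It had only 3 distinct values on the 6 line arrays, all below the array median. Hoxd9 read 3.89, 4.06 and 4.24 in TG3, 4.04, 3.89 and 3.89 in nonTG3 and 3.53 in C57BL/6, with a line mean of 4.00 ± 0.14 (SD, n = 6; limma adjusted p = 0.261). Hoxc4 read 3.92, 3.90 and 3.92 in TG3, 3.90, 4.04 and 4.23 in nonTG3 and 3.63 in C57BL/6 (limma adjusted p = 0.391). Hoxc13 had the largest positive difference among the members, 0.65 ± 0.27 (limma SE; limma adjusted p = 0.442). On every line array each of these 4 read above C57BL/6.

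Members with negative differences did not pass either. The 4 with the smallest p were Hoxa4 (-0.30 ± 0.35), Hoxb13 (-0.17 ± 0.27), Hoxd13 (-0.06 ± 0.13) and Hoxb1 (-0.03 ± 0.13), all log2 differences with the limma SE. Each moved with single arrays: that of Hoxa4 was -0.17 without TG3 replicate 1 and -0.37 without TG3 replicate 3. That of Hoxb13 ran from -0.28 without TG3 replicate 3 to -0.097 without TG3 replicate 2. Without TG3 replicate 1 that of Hoxd13 was -0.098 and that of Hoxb1 -0.075, and without TG3 replicate 2 they were -0.027 and -0.01. Hoxb13, known from the prostate and tail end, read 2.82, 2.65 and 3.39 in TG3, 2.88, 2.88 and 3.03 in nonTG3 and 3.12 in C57BL/6. Hoxd13 read 2.59 to 2.87 in TG3, 2.72 to 2.77 in nonTG3 and 2.79 in C57BL/6. Hoxb4 differed by -0.24 ± 1.20 over all 6 line arrays. Without TG3 replicate 1 and nonTG3 replicate 3 its difference was 0.51, that of Hoxb6 was 0.62 and that of Hoxb8 was 0.59, where over all 6 arrays those of Hoxb6 and Hoxb8 were 0.11 and 0.13.

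Carriers and littermates were each set against the C57BL/6 array, which both contrasts share. TG3 against C57BL/6 called 0 of 37 Hox probe sets, where 2.53% of all were called (0.119% higher and 2.41% lower), with a median difference of 0.15, or 0.081 without TG3 replicate 3. At an unadjusted p under 0.05 there were 3 (Hoxc13, Hoxc11 and Hoxd9), all higher, where 11.9% of all passed (4.33% higher), and 28 of 37 were above 0, where 59.2% of all were. nonTG3 against C57BL/6 also called 0, where 2.53% of all were called (0.0936% higher and 2.43% lower), with a median of 0.06, or 0.16 without nonTG3 replicate 3 and 0.026 with arrays centred on their medians. Here too 3 passed the unadjusted p (Hoxc11, Hoxc4 and Hoxd9), all higher, where 11.7% of all passed (3.95% higher), and 27 of 37 were above 0, against 56.3% of all. Of the other 10, 9 were below 0, and Hoxb1 read the same on every nonTG3 array as on C57BL/6. Hoxc11 differed by 0.42 ± 0.10 in TG3 and 0.39 ± 0.10 in nonTG3 (log2, limma SE), at limma adjusted p of 0.144 and 0.178. Hoxc13 differed by 0.80 ± 0.29 in TG3 and 0.49 ± 0.29 in nonTG3.

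Genes that act with or on Hox genes were read beside them. Polycomb proteins hold Hox genes silent and Trithorax proteins keep them active. Of 30 Polycomb probe sets 1 was called, lower in the line than in C57BL/6, and of 16 Trithorax probe sets also 1, where 3.02% of all tested were called (2.85% lower). Dpy30, a core subunit of the complexes that methylate lysine 4 of histone H3, read 5.10, 4.91 and 4.89 in TG3, 4.91, 4.54 and 4.91 in nonTG3 and 6.46 in C57BL/6. It fell by 1.58 log2 units in the line (limma adjusted p = 0.0133), but not past the threshold without TG3 replicate 2 (limma adjusted p = 0.0532). With TG3 replicate 1 and nonTG3 replicate 3 both removed it was 0.117, in a fit that called 0 of all probe sets, and the difference was -1.65. Ash2l, a partner of Dpy30 in those complexes, averaged 5.51 ± 0.13 in the line (SD, n = 6) and read 6.15 in C57BL/6 without passing (limma adjusted p = 0.127). Between TG3 and nonTG3, Kdm6a, which removes the Polycomb mark, averaged 5.30 ± 0.46 in TG3 and 5.78 ± 0.29 in nonTG3 (SD, n = 3 each; limma adjusted p = 0.923). Pcgf5, a subunit of a Polycomb repressive complex, averaged 3.40 ± 0.21 in the line (SD, n = 6), below the array median, and read 4.92 in C57BL/6 (limma adjusted p = 0.0245). Its call was lost in 5 of the 6 fits without 1 line array (all but that without TG3 replicate 2), with limma adjusted p up to 0.0811. With both low-mitochondrial arrays removed, where 0 of all were called, the limma adjusted p of Pcgf5 was 0.173. Its difference was then -1.57, against -1.53 over all arrays.

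Pbx, Meis and Pknox proteins bind DNA together with Hox proteins, and of their 8 probe sets 0 were called in either contrast, with a median of -0.12 for TG3 minus nonTG3 and 0.10 for the line minus C57BL/6. Meis1 read 2.61, 2.59 and 2.61 in TG3, 3.08, 2.61 and 2.72 in nonTG3 and 2.61 in C57BL/6. Retinoic acid switches Hox genes on in the embryo, and of 18 probe sets of its pathway 0 were called (medians 0.06 and 0.11). The retinoic acid receptor gene Rara averaged 4.80 ± 0.19 in the line (SD, n = 6) and read 4.13 in C57BL/6 (limma adjusted p = 0.234). Of 11 probe sets for ParaHox and Hox-flanking homeobox genes, relatives such as Cdx4 and Evx1, 0 were called (medians -0.02 and 0.11).

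Noncoding genes of the Hox clusters were read by 7 probe sets, of which 0 were called in either contrast. Hoxaas3, an antisense RNA gene of cluster A, read 3.58, 3.55 and 3.58 in TG3, 3.58, 4.08 and 3.58 in nonTG3 and 3.19 in C57BL/6. Mir196a-2, a microRNA gene of cluster C known to act on Hox messages, read 3.68, 3.91 and 3.87 in TG3, 4.32, 3.91 and 3.91 in nonTG3 and 4.22 in C57BL/6. Groups of the line overlapped for both. A probe set shared by Hoxd4 and Hoxd3, not counted among the members, read 4.59, 6.01 and 6.51 in TG3, 5.80, 6.06 and 5.33 in nonTG3 and 5.48 in C57BL/6. It too was lowest within the line on TG3 replicate 1 and nonTG3 replicate 3, while the Hoxd3 probe set alone read 4.16 to 4.61 in TG3, 4.24 to 4.43 in nonTG3 and 4.25 in C57BL/6. This shared probe set was chosen after its values were seen. Of the probe sets that name a Hox gene together with another gene, it alone was lowest on both of those arrays. The probe set shared by Hoxb4 and Mir10a, for example, read 1.67, 1.52 and 1.71 in TG3, 1.81, 1.67 and 1.40 in nonTG3 and 1.67 in C57BL/6.

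Other families of developmental genes were read on the same arrays. For the line minus C57BL/6 the median was 0.11 over 58 probe sets of distant homeobox families such as Dlx, Lhx, Nkx, Pax and Irx, with 41 above 0, where 60.8% of all were. It was 0.13 over 64 probe sets with symbols of Wnt, Fgf, Bmp and Gdf ligands, with 51 above 0, and 0.03 over 10 reproductive Rhox genes. The lists were matched by symbol, so they also hold some genes of other kinds, such as Bmp2k, not a ligand, and the antisense gene Dlx4os. Pax7, a gene of muscle stem cells, read 5.27, 5.09 and 4.84 in TG3, 4.43, 4.40 and 4.65 in nonTG3 and 4.10 in C57BL/6, with TG3 clear of nonTG3 but not past the test (limma adjusted p = 0.923). limma called 0 members of each list, and whether the lists differ from the Hox genes was not tested.

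Markers of other cells in a sperm sample were called in 0 cases between TG3 and nonTG3. Epididymal epithelium markers (20 probe sets, 15 above the array median on all arrays) averaged 5.19 to 5.54 in TG3, 4.72 to 5.51 in nonTG3 and 4.94 in C57BL/6. For TG3 minus nonTG3 18 of 20 were above 0, where 51% of all tested were, with a median difference of 0.33. Replicates 2 and 3 of nonTG3 had the lowest means within the line, at 4.90 and 4.72. Leukocyte markers (12 probe sets, 6 above) averaged 3.89 to 4.04 in TG3, 3.503 to 3.88 in nonTG3 and 3.77 in C57BL/6. Sertoli and Leydig cell markers (13 probe sets, 4 above) averaged 3.11 to 3.18 in TG3, 2.95 to 3.09 in nonTG3 and 4.10 in C57BL/6, with the steroid enzyme gene Cyp17a1 at 2.40 ± 0.25 in the line (SD, n = 6) and 6.56 in C57BL/6. What part such cells had in the Hox readings was not tested.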

How the data were processed

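Sperm RNA of TG3, nonTG3 (3 arrays each) and C57BL/6 mice (1 array) was amplified and labelled with an Affymetrix whole-transcript kit, per the labels' protocols. The authors deposited log2 intensities per probe set, made with RMA, oligo and limma in R 3.1.0, per the submitters' processing notes. No source used here gives a genome build, a filter on probe sets or scan batches. The number of arrays limits the precision, and there is no read depth.

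The platform annotation gave the names: 23493 probe sets had 1 symbol and were tested, 1801 had several and 8310 none. Entrez identifiers matched 23300 to RefSeq (GRCm38.p6), used for names and promoters. Mitochondrial genes carry no mt- prefix there and were matched by their bare symbols. limma 3.58.1 in R 4.3.3 fitted 1 mean per group over all 7 arrays, with eBayes (4 residual and 1.65 prior degrees of freedom) and Benjamini-Hochberg adjustment over the 23493; a call is an adjusted p under 0.05. It was tested on simulated data.

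Members, lists and tests were chosen with earlier results of these data known. Named members are the 6 highest and 3 lowest against the array median, the 4 smallest p-values in each direction of TG3 against nonTG3 and the line against C57BL/6, the 3 widest ranges on the line, and genes with several probe sets; for other lists they are the 2 genes of smallest p in either contrast and any called, of which some are given here. Other genes named are examples chosen after their values were seen. Alternatives covered normalization, the prior, array weights, a filter on dim probe sets, the probe sets and arrays used, each line array left out, both arrays of lowest mitochondrial RNA left out, and the replicate number as a block. Figures were drawn with matplotlib 3.10.9.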

Additional observations from a re-analysis of the deposited data

How the results depend on the processing

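The count of 0 called Hox probe sets held in all 4 contrasts under every alternative run, a threshold of 0.1 included. For TG3 against nonTG3 that count could not have differed, since 0 probe sets of any kind were called under any of them. Over all tested probe sets, limma calls for the line against C57BL/6 numbered 710, against 350 to 496 with 1 line array left out, 935 with only the arrays compared and 0 with TG3 replicate 1 and nonTG3 replicate 3 both removed. For TG3 against C57BL/6 they numbered 595, against 0 with only the arrays compared and 272 to 333 with 1 line array left out, and for nonTG3 against C57BL/6 594, against 54 and 228 to 397 in those fits. With those same 2 arrays removed 0 were called in these contrasts too, and where 0 of all were called a Hox count of 0 says nothing. The median Hox difference for TG3 minus nonTG3 ran from -0.024 (without TG3 replicate 3) to 0.053 (without TG3 replicate 1) over all 37. It was 0.084 over the 19 Hox probe sets left when dim probe sets were filtered out. Its sign is thus not settled. For the line minus C57BL/6 the median ran from 0.075 (without nonTG3 replicate 2) to 0.15. Centring arrays on their medians gave 0.085 for the line minus C57BL/6. Repeated quantile normalization gave 0.11. The signs of Hoxb4, Hoxb6 and Hoxb8 depended on single arrays. For TG3 minus nonTG3, over the fits without 1 line array, Hoxb4 ran from -0.52 to 0.96, Hoxb6 from -0.28 to 0.74 and Hoxb8 from -0.34 to 0.58. For the line minus C57BL/6 Hoxb4 ran from -0.52 to 0.16, Hoxb6 from -0.051 to 0.39 and Hoxb8 from -0.056 to 0.37 over those fits, and Hoxb4 was 0.51 without both arrays of lowest mitochondrial RNA. The smallest adjusted p that any alternative gave a named Hox probe set was 0.0619 (limma, Hoxc11, line minus C57BL/6). The count of Hox probe sets above the array median on every array was 18 or 19 when arrays were left out. Same-numbered TG3 and nonTG3 arrays did not deviate together (correlations of deviations from the group means of -0.45, 0.02 and -0.40 for replicates 1, 2 and 3). TG3 replicate 1 went most with nonTG3 replicate 3, at 0.55. Deviations from a mean of 3 arrays sum to 0, so these values cannot tell whether the number pairs the arrays. With the replicate number as a block 0 Hox probe sets were called and the median stayed at 0.0323. Dim readings, the ties left by RMA and the single C57BL/6 array limit what these data can show.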
